A study of Mus musculus with 20 samples.

Results

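The matrix metalloproteases, the ADAMTS proteases and their inhibitors, the TIMPs, were followed through 15 mouse liver tumors and 5 livers by RNA sequencing. Members were all genes whose symbol is Mmp, Adamts or Timp followed by a gene number, and the count tables held 46 of them among 50559 genes, namely 23 Mmp, 19 Adamts and 4 Timp genes. The tumors came from female C57BL/6J mice that were injected as young adults into the tail vein with plasmids, a method called hydrodynamic gene transfer that reaches hepatocytes. All 3 kinds of tumor carried a MYC transgene together with the SB100X transposase, which inserts plasmid cassettes into the genome. They differed in the partner, which was human FGF19, a gut hormone that represses bile acid synthesis in the liver (5 tumors), Aldafermin, an engineered analog of FGF19 changed at its N-terminal end (5 tumors), or a CRISPR guide against Trp53, the gene of the p53 tumor suppressor (5 tumors). The 5 control livers are labelled as not treated, while the methods of the study describe transfer of an RFP plasmid. Each tumor came from another mouse. Because a bulk tumor holds many cell types, fewer cells of a type and less RNA per cell cannot be told apart in any value that follows.

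Matrix metalloproteases, or MMPs, are zinc enzymes that are made as inactive proenzymes and cut collagens, elastin, laminin and other extracellular proteins once their propeptide is removed. ADAMTS proteases share the zinc-binding site but carry thrombospondin repeats, and they act on narrower targets such as proteoglycans, procollagens and von Willebrand factor. The TIMPs bind the active site of these enzymes, and the balance of enzyme and inhibitor is known to shape scarring and tissue repair in the liver, where stellate cells and macrophages are main sources of both.

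Levels are given as CPM, the reads of a gene scaled to the depth of its library and normalized by the TMM method, and differences as log2 fold changes from edgeR's quasi-likelihood test with Benjamini-Hochberg adjustment over all genes tested. Libraries held between 18004977 and 44427184 reads on genes, apart from the sgTrp53 + MYC tumors, which were deposited as a table of their own with 54042455 to 66354724 reads, so that in their comparisons table and condition cannot be told apart. Reads set aside as ambiguous between genes were 11.1% to 14.6% in the sgTrp53 + MYC libraries and 3.03% to 6.3% in the others. Reads not aligned were 5.34% to 6.82% against 15.3% to 34%. Trp53 itself was read at 18.7 to 79.9 CPM in the sgTrp53 + MYC tumors, at 90.8 to 176 CPM in the other tumors (log2 fold change 1.57 between them, adjusted p = 0.000159) and at 28.8 to 36.4 CPM in livers. The 8 hepatocyte markers looked at were all lower in the tumors of both comparisons with liver, although Alb remained at 731 CPM or more in every tumor. Some libraries stood apart. The third Aldafermin + MYC tumor had the highest summed levels of stellate cell and fibroblast markers (923 CPM) and of macrophage markers (351 CPM) among tumors. Acta2 was at 155 CPM and Col3a1 at 593 CPM there. Other markers of both lists were higher elsewhere, such as Reln (24.3 CPM) and Clec4f (47.2 CPM) in the fifth FGF19 + MYC tumor, against 5.04 and 1.89 CPM. The second sgTrp53 + MYC tumor held the bile duct keratins Krt19 and Krt7 at 191 and 80.9 CPM, while every other library held less than 3 CPM of each. The hepatocyte enzyme Cyp2e1 reached 837 CPM in the fourth Aldafermin + MYC tumor and 1370 CPM in the fifth FGF19 + MYC tumor, above all other tumors.

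Of the 46 members, 27 had at least 1 CPM in at least 5 libraries and could be tested (12 Mmp, 12 Adamts and 3 Timp genes). Among the 19 others, Adamts18 and Mmp21 had no read in any library and Mmp16 had at most 3 reads in each. Per kilobase of exon, the summed level of the 23 Mmp genes was 73.2 ± 7.35 CPM per kb (SD, n = 5) in livers, 42.8 ± 19.6 in Aldafermin + MYC, 31 ± 8.1 in FGF19 + MYC and 26.2 ± 6.59 in sgTrp53 + MYC tumors. In livers, Mmp19 (35.3 CPM per kb), Mmp14 (18.6) and Mmp15 (15.3) were the most abundant on this scale. In the tumors, Mmp14 led, at 15.1, 12.8 and 8.93 CPM per kb in Aldafermin + MYC, FGF19 + MYC and sgTrp53 + MYC tumors, and Mmp12 was among the 4 most abundant, at 5.6, 3.04 and 3.16. The 19 Adamts genes summed to less, between 6.06 CPM per kb in sgTrp53 + MYC tumors and 9.23 in livers. Of the 4 Timp genes, Timp2 and Timp3 made up nearly the whole sum in livers, and Timp1 rose from 1.2% of that sum in livers to 23.2%, 9.36% and 25.3% in the 3 tumor groups, the last being 11% without the second sgTrp53 + MYC tumor.

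**Figure D1:**
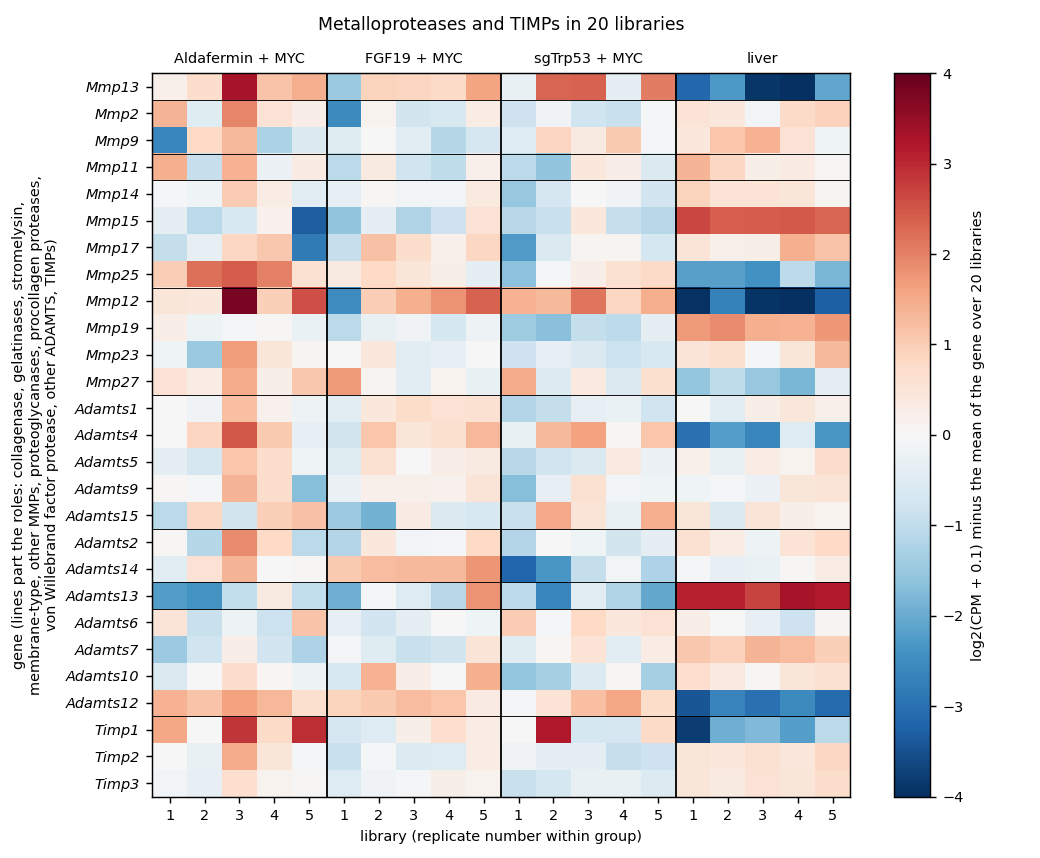
Each row is 1 of the 27 genes tested and each column 1 of the 20 libraries. Color gives log2(CPM + 0.1) minus the mean of that gene over all libraries, from 4 below (blue) to 4 above (red), and it shows Mmp12, Mmp13, Adamts12 and Mmp25 low in all 5 livers and Mmp15, Mmp19 and Adamts13 high there.

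The first question was how the tumors differed from liver. Against liver, 8 members rose and 5 fell in the pooled Aldafermin + MYC and FGF19 + MYC tumors, 29.6% and 18.5% of the 27 tested, while 39.2% of all 14333 genes were higher and 34.5% lower. In sgTrp53 + MYC tumors, 7 members were higher and 12 lower than in liver, 25.9% and 44.4% of those tested, with 36.9% of all genes higher and 33% lower. The share of members called was below that of all genes in each direction, apart from the lower ones in sgTrp53 + MYC tumors. In these tumors 8 of 8 hepatocyte, 7 of 8 macrophage and Kupffer cell, 5 of 8 endothelial and 5 of 10 stellate cell and fibroblast markers were also lower. Higher were 1 macrophage and 2 stellate cell and fibroblast markers, 1 of 5 cholangiocyte markers and the 1 lymphocyte marker tested. None of 3 neutrophil markers tested passed. The part of these markers in that share was not tested. Scaling to total gene reads moves the median of all genes up by nearly 1 log2 unit. The split of the members then became 12 higher and 4 lower in the pooled tumors. It became 9 higher and 3 lower in sgTrp53 + MYC tumors, where Adamts13, Mmp15 and Mmp19 were still lower. All genes turned the same way under that scaling. Of the 14333 tested, 8763 passed upward and 2629 downward for the pooled tumors against liver. For sgTrp53 + MYC tumors 8534 passed upward and 2423 downward. The median log2 fold change of the members was -0.09 in the pooled tumors, where that of all genes was 0.10, and -0.88 in sgTrp53 + MYC tumors, where that of all genes was 0.07. With no overlap between groups, 5 members lay above and 4 below every liver in the pooled tumors, where 28.5% and 25.7% of all genes did so, and 5 lay above and 10 below in sgTrp53 + MYC tumors, where 28.8% and 27.4% did. Both comparisons use the same 5 livers.

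**Figure D2:**
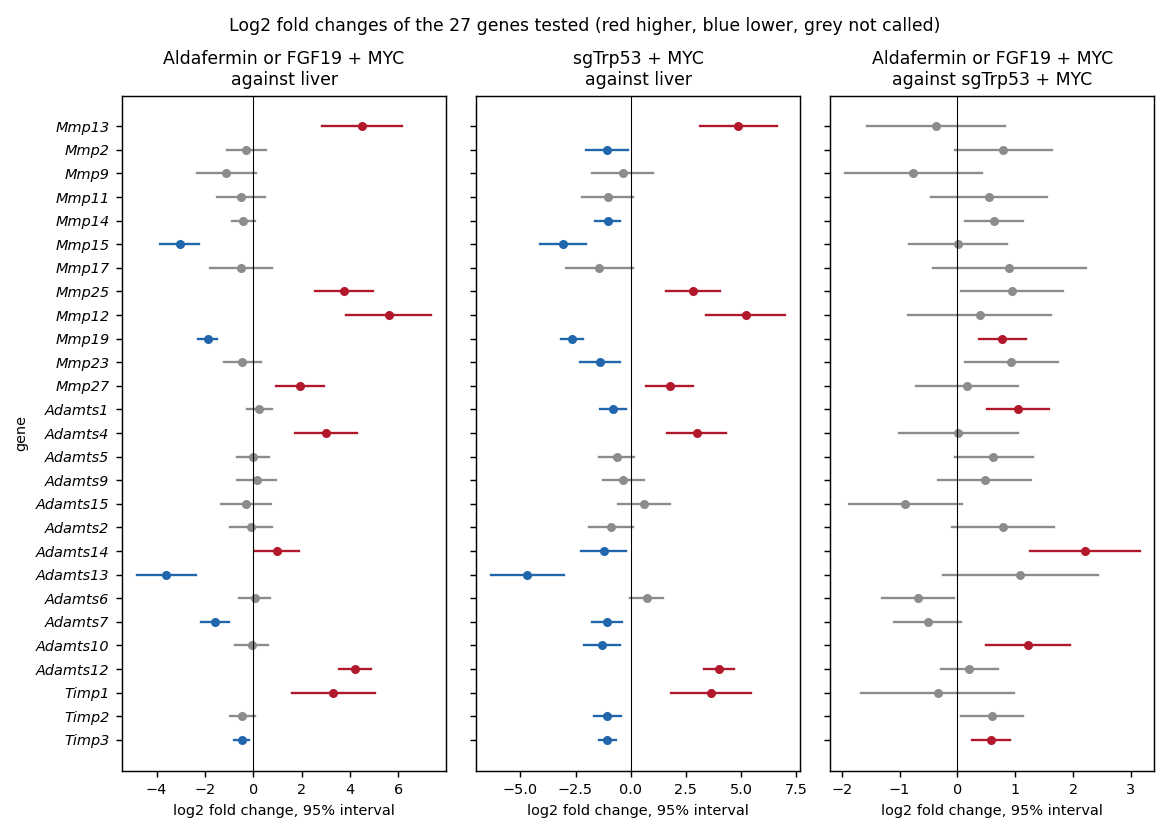
Points are log2 fold changes of the 27 genes tested and bars their 95% intervals, in 3 comparisons with an axis each. Red points passed the threshold as higher, blue as lower and grey did not pass. Mmp12, Mmp13 and Adamts12 lie farthest to the right in both comparisons with liver and Adamts13 farthest to the left.

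Elastase and collagenase rose most. Mmp12, the macrophage elastase, was read in livers at 0.43, 1.17, 0.442, 0.0683 and 0.757 CPM. Its levels were 11.3, 10.8, 115, 15.7 and 49.4 CPM in Aldafermin + MYC tumors, 1.34, 16.3, 22.1, 28.3 and 42.1 in those with FGF19 + MYC and 21.5, 19.9, 36.2, 14.4 and 22.4 in sgTrp53 + MYC tumors. Every tumor lay above every liver, the first FGF19 + MYC tumor by the least and the third Aldafermin + MYC tumor by the most. The rise was 48.6-fold in the pooled tumors (log2 fold change 5.60, SE 0.84, adjusted p = 6.34e-06) and 37.2-fold in sgTrp53 + MYC tumors (log2 fold change 5.22, SE 0.86, adjusted p = 2.28e-05). Mmp13, the main interstitial collagenase of rodents, went from 0.281 ± 0.224 CPM (SD, n = 5) in livers to 9.73 ± 10 in Aldafermin + MYC, 4.79 ± 2.63 in FGF19 + MYC and 8.84 ± 6.21 in sgTrp53 + MYC tumors. That was 22.7-fold in the pooled tumors (adjusted p = 3.98e-05) and 29.3-fold in sgTrp53 + MYC tumors (adjusted p = 3.52e-05), again with no overlap. Without the third Aldafermin + MYC tumor and the second sgTrp53 + MYC tumor, Mmp12 was still 35.8-fold and 38.6-fold higher and Mmp13 16.8-fold and 25-fold higher. Of the 8 macrophage and Kupffer cell markers, the pooled tumors had 1 higher and 5 lower than liver, and sgTrp53 + MYC tumors 1 higher and 7 lower. The summed level of these markers was 336 to 485 CPM in livers and 83.1 to 351 CPM in tumors, and Clec4f, a Kupffer cell marker, was at 136 to 189 CPM in livers and at 0 to 47.2 CPM in tumors, while Cd68 ran from 13.3 to 18.9 CPM in livers and from 30.3 to 130 in tumors. Their part in the rise of Mmp12 was not tested.

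Both genes belong to a row of 10 Mmp genes that lie next to each other within 427 kb of chromosome 9 (chr9:7272514-7699587, GRCm39), in the order Mmp13, Mmp12, Mmp1b, Mmp3, Mmp1a, Mmp10, Mmp8, Mmp27, Mmp20 and Mmp7. Only Mmp13, Mmp12 and Mmp27 passed the filter on low counts. Mmp27, whose substrates are less well described, rose from 0.598 ± 0.312 CPM in livers to 2.63 ± 1.06, 2.07 ± 1.64 and 2.08 ± 1.34 in the 3 tumor groups (adjusted p = 0.00126 and 0.00491), with tumors and livers overlapping. The other neighbors had few reads. Mmp10, a stromelysin, had 184 reads in the second sgTrp53 + MYC tumor and 46 in the third Aldafermin + MYC tumor, while the FGF19 + MYC tumors and livers had none. Mmp3, the other stromelysin of the row, had 86 reads in the third Aldafermin + MYC tumor and 50 in the second sgTrp53 + MYC tumor, with at most 3 in every FGF19 + MYC tumor and liver. Mmp1a and Mmp1b, a pair of similar interstitial collagenase genes between which reads may be split, were read only in the second sgTrp53 + MYC tumor, with 44 and 12 reads. Mmp8, the neutrophil collagenase, was highest in the third Aldafermin + MYC tumor (0.961 CPM), followed by the fifth (0.617 CPM) and by the fourth sgTrp53 + MYC tumor (0.599 CPM), and livers had at most 0.147 CPM. Mmp20, a tooth enamel protease, had at most 4 reads anywhere. Mmp7, or matrilysin, had a mean of 0.493 CPM in livers, or 0.287 CPM without the fifth of them (1.31 CPM), and 0.105, 0.241 and 0.136 in the 3 tumor groups.

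**Figure D3:**
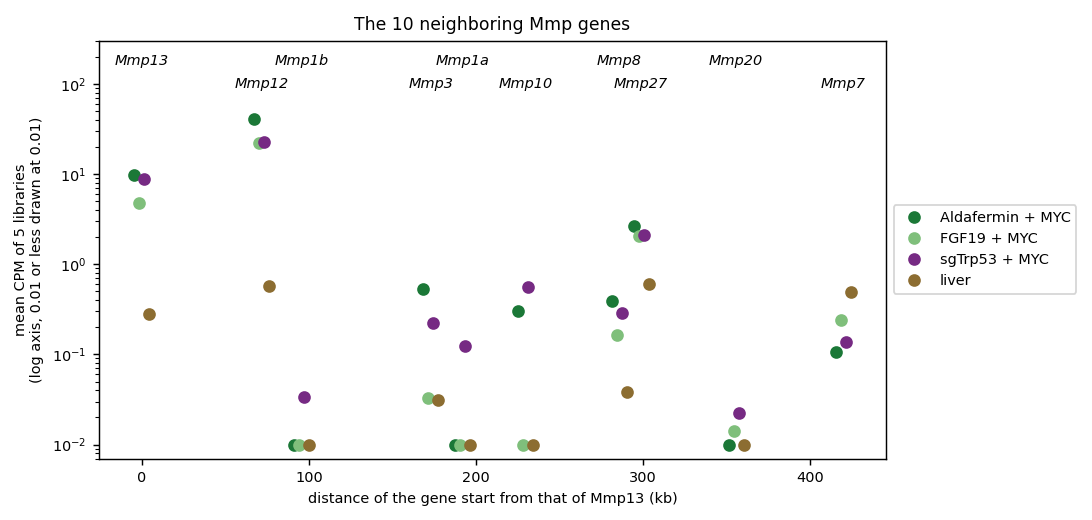
The horizontal axis gives the distance of each gene start from that of Mmp13 in kb, the vertical axis the mean CPM of the 5 libraries of a group on a log axis, with 0.01 or less drawn at 0.01. Mmp13, Mmp12 and Mmp27 stand above liver in all 3 tumor groups. The highest point of Mmp7 is that of livers, at 0.493 CPM, or 0.287 CPM without the fifth liver.

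The bases before the start sites of these neighbors are shown for a comparison letter by letter. They include genes called against liver and genes below the filter, whose change was not tested. Start sites are those of the RefSeq promoter table for GRCm38.p6, which held 32 of the 46 members and all 10 genes of the row. Each window was found again as an exact match in GRCm39, and 250 bases before the start were searched on both strands for TGANTCA, the sequence that AP-1 factors (Fos and Jun) bind, and for the TATA box TATAAA. No AP-1 match overlapped a TATA match in the stretches shown. At least 1 AP-1 sequence stood in 8 of the 10 genes of the row, in none of the other 22 members searched and in 6.75% of all 32851 windows. A TATA box stood in 7 of the 10 genes, in 2 of the other 22 members (Adamts1 and Mmp21) and in 12.4% of all windows. The 2 genes without the AP-1 letters were Mmp8 and Mmp27. Below are the 100 bases before the start of 6 of them, all on the plus strand and written 5′ to 3′, with AP-1 and TATA letters in capitals. Those of Mmp12 precede the later of its 2 starts and lie within an intron of the gene, those of Mmp27 and Mmp7 lie within the noncoding genes Gm31751 and AV064505, and the other 3 lie in no annotated gene.
Mmp13 (chr9:7272414-7272513): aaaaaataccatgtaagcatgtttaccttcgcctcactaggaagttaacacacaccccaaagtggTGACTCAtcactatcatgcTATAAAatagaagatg
Mmp12 (chr9:7347274-7347373): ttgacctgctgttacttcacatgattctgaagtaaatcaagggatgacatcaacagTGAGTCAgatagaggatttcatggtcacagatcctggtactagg
Mmp27 (chr9:7571297-7571396): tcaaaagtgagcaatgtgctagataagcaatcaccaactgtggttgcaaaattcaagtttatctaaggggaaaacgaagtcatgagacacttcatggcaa
Mmp3 (chr9:7445722-7445821): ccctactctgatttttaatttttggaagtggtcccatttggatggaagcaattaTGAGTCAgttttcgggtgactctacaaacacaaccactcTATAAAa
Mmp10 (chr9:7502243-7502342): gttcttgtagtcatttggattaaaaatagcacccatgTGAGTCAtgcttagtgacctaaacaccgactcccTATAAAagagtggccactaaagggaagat
Mmp7 (chr9:7691991-7692090): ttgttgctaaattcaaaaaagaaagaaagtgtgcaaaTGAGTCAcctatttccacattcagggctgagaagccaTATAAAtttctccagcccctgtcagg
In these stretches the AP-1 letters began 35 bases before the start in Mmp13, 44 in Mmp12, 46 in Mmp3 and 63 in both Mmp10 and Mmp7. Mmp27, which was higher in tumors, held none in its window. The motifs were chosen with results of these data known, and a match is a match of letters only.

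Neither gelatinase, enzymes that cut denatured collagen and basement membrane, passed in the pooled tumors. Mmp2, or gelatinase A, a product of stromal cells (chr8:93553902-93580049), was read at 5.52, 5.06, 3.49, 6.42 and 7.25 CPM in livers and at 9.72, 2.65, 14.7, 5.61 and 4.49 in Aldafermin + MYC tumors. FGF19 + MYC tumors held 0.558, 4.15, 2.2, 2.35 and 4.57 CPM and sgTrp53 + MYC tumors 2.06, 3.39, 2.13, 1.97 and 3.56. The groups overlapped. Mmp2 did not pass against liver in the pooled tumors (log2 fold change -0.29, SE 0.39, adjusted p = 0.515) and fell by 1.08 on the log2 scale in sgTrp53 + MYC tumors (adjusted p = 0.0425), a call that was lost without any single 1 of 7 libraries (all livers but the third, and sgTrp53 + MYC tumors 1, 3 and 4), with adjusted p up to 0.0863. A noncoding gene on the opposite strand, Gm45472, shares 24.3% of its exon bases. Mmp9, or gelatinase B, a product of neutrophils and macrophages (chr2:164780439-164797771), was scarce everywhere. Livers held 0.717, 1.21, 1.5, 0.819 and 0.438 CPM, Aldafermin + MYC tumors 0, 0.967, 1.39, 0.154 and 0.309, FGF19 + MYC tumors 0.335, 0.51, 0.359, 0.176 and 0.281 and sgTrp53 + MYC tumors 0.329, 1.01, 0.68, 1.16 and 0.491. It passed in neither comparison with liver (adjusted p = 0.0927 and 0.645). The 8 neutrophil markers summed to 3.49 to 5.46 CPM in livers and to 3.06 to 33.8 CPM in tumors, with the highest sum in the fourth sgTrp53 + MYC tumor.

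The membrane-type MMPs went in different directions. Mmp14, which sits on the cell surface and activates the Mmp2 proenzyme (chr14:54668878-54682821), was read in livers at 146, 115, 115, 110 and 85.9 CPM. Levels were 75.8, 70.9, 162, 97.4 and 59 CPM in Aldafermin + MYC tumors, 63.7, 81.6, 73.8, 72.9 and 103 in those with FGF19 + MYC and 27.9, 49.5, 79.3, 72.6 and 46.2 in sgTrp53 + MYC tumors. All 5 sgTrp53 + MYC tumors lay below all livers (log2 fold change -1.05, SE 0.27, adjusted p = 0.00204), whereas the pooled tumors overlapped with livers (log2 fold change -0.42, adjusted p = 0.112, and -0.56 with adjusted p = 0.0173 without the third Aldafermin + MYC tumor). Mmp15, a second transmembrane member (chr8:96078895-96101708), stood at 95.8, 79.6, 80.4, 82.6 and 75.6 CPM in livers. It was at 11.4, 7.07, 9.74, 16.9 and 1.43 CPM in Aldafermin + MYC tumors, 4.97, 11.4, 6.42, 8.36 and 22.4 in those with FGF19 + MYC and 6.85, 7.99, 20.2, 7.79 and 6.88 in sgTrp53 + MYC tumors. Every tumor lay far below every liver, and the fall was 8.28-fold in the pooled tumors (log2 fold change -3.05, SE 0.39, adjusted p = 8.62e-07) and 8.32-fold in sgTrp53 + MYC tumors (log2 fold change -3.06, SE 0.50, adjusted p = 2.22e-05). The pooled tumors with the most Mmp15 were the fourth Aldafermin + MYC and the fifth FGF19 + MYC tumor, the same 2 that held the most Cyp2e1 among those tumors, and without both of them the fall was 10.9-fold. The sgTrp53 + MYC tumors did not share this order. The first held the most Cyp2e1 of its group (701 CPM) and the least Mmp15, and the third the most Mmp15 with Cyp2e1 at 222 CPM. How much of the fall of Mmp15 follows the hepatocyte markers was not tested. Mmp25, which is anchored to the membrane by a lipid and is known from leukocytes (chr17:23847285-23864251), rose. Livers held 0.0717, 0.0733, 0.0442, 0.273 and 0.12 CPM, Aldafermin + MYC tumors 1.43, 3.47, 4.11, 3.04 and 1.09, FGF19 + MYC tumors 0.893, 1.24, 0.987, 0.822 and 0.492 and sgTrp53 + MYC tumors 0.148, 0.658, 0.83, 1.1 and 1.23. Aldafermin + MYC and FGF19 + MYC tumors all lay above the livers (log2 fold change 3.76, SE 0.57, adjusted p = 7.12e-06), and sgTrp53 + MYC tumors overlapped with them through their first library (log2 fold change 2.82, SE 0.59, adjusted p = 0.000317). Mmp17, its lipid-anchored relative, did not pass (adjusted p = 0.458 and 0.0882), although all sgTrp53 + MYC tumors lay below all livers, and Mmp24 and Mmp16 were below the filter.

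Of the remaining MMPs, Mmp19, a secreted enzyme that cuts basement membrane proteins (chr10:128626773-128636695), was the most abundant in livers per kb and fell in all tumors. Its level in livers was 130, 150, 108, 104 and 133 CPM. It was 48, 34.5, 38.1, 41 and 33 CPM in Aldafermin + MYC tumors, 18.7, 32.3, 35.9, 24.5 and 34.7 in those with FGF19 + MYC and 14.9, 12.5, 20.4, 19.5 and 31.4 in sgTrp53 + MYC tumors. The highest tumor lay far below the lowest liver, with a fall of 3.71-fold in the pooled tumors (log2 fold change -1.89, SE 0.18, adjusted p = 1.5e-08) and 6.34-fold in sgTrp53 + MYC tumors (log2 fold change -2.66, SE 0.23, adjusted p = 4.84e-09). Tmem198b on the opposite strand shares 30.6% of its exon bases, and the strand setting of the counting is not given in the sources used here. Mmp23, a small transmembrane enzyme, was lower in sgTrp53 + MYC tumors (0.757 against 1.99 CPM in livers, adjusted p = 0.00842) and did not pass in the pooled tumors (adjusted p = 0.274). Its difference between the kinds of tumor did not pass (adjusted p = 0.0871), but did without the second Aldafermin + MYC tumor (0.0236). Mmp11, or stromelysin 3, passed in neither comparison with liver (adjusted p = 0.332 and 0.0938, the second 0.0442 without the third sgTrp53 + MYC tumor). Mmp28, or epilysin, was below the filter with at most 59 reads in a library.

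**Figure D4:**
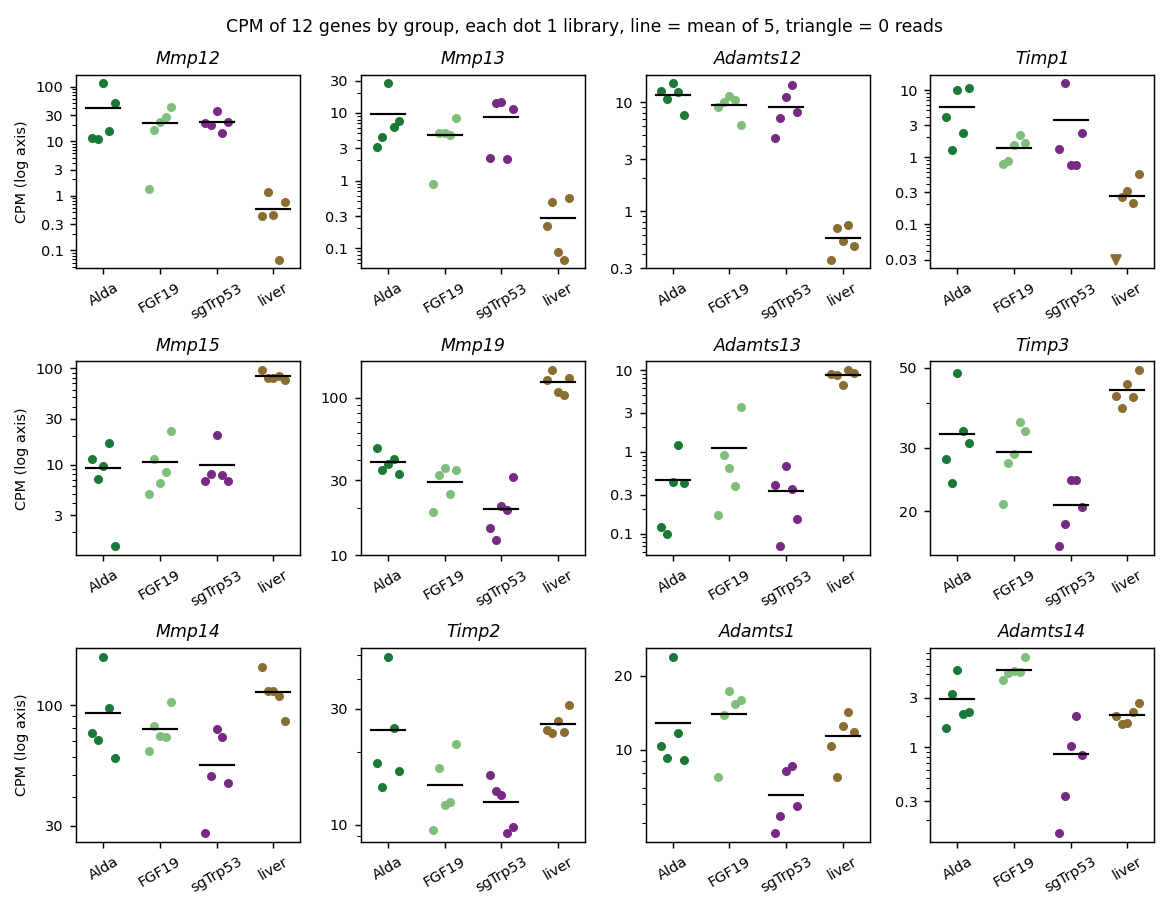
Each dot is the CPM of 1 library on a log axis of its own for each of 12 genes, the line is the mean of the 5 libraries of a group and a triangle stands for 0 reads. In the panels of Mmp12, Mmp13, Adamts12 and Timp1 every tumor lies above every liver, and in those of Mmp15, Mmp19 and Adamts13 every tumor lies below.

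Among the ADAMTS proteases, Adamts12 and Adamts13 moved most. Adamts12, which cuts cartilage oligomeric matrix protein (chr15:11064876-11349318), was read at 0.359, 0.697, 0.53, 0.751 and 0.478 CPM in livers. It stood at 12.8, 10.7, 14.9, 12.3 and 7.6 CPM in Aldafermin + MYC tumors, 8.99, 10, 11.4, 10.5 and 6.12 in those with FGF19 + MYC and 4.69, 7.11, 11.2, 14.3 and 8.17 in sgTrp53 + MYC tumors. Every tumor lay above every liver, and Adamts12 had the smallest adjusted p of all members in both comparisons, with 18.4-fold more in the pooled tumors (log2 fold change 4.21, SE 0.31, adjusted p = 3.31e-10) and 16-fold more in sgTrp53 + MYC tumors (log2 fold change 4.00, SE 0.32, adjusted p = 1.6e-09). Adamts13, which trims von Willebrand factor in blood and is made in the liver by stellate cells (chr2:26863428-26899640), held 8.89, 8.61, 6.58, 9.97 and 9.16 CPM in livers. Tumors had 0.121, 0.0992, 0.427, 1.23 and 0.421 CPM (Aldafermin + MYC), 0.167, 0.91, 0.628, 0.381 and 3.51 CPM (FGF19 + MYC) and 0.395, 0.07, 0.68, 0.354 and 0.153 CPM (sgTrp53 + MYC). The fifth FGF19 + MYC tumor was the nearest to liver and still below all livers. Adamts13 was 12.1-fold lower in the pooled tumors (log2 fold change -3.60, SE 0.58, adjusted p = 1.6e-05) and 25.7-fold lower in sgTrp53 + MYC tumors (log2 fold change -4.69, SE 0.79, adjusted p = 2.95e-05), and 22.9-fold lower in the pooled tumors without that library and the fourth Aldafermin + MYC tumor. Of the 10 stellate cell and fibroblast markers, the pooled tumors had 2 higher and 6 lower than liver and sgTrp53 + MYC tumors 2 higher and 5 lower, with a summed level of at least 378 CPM in every liver and of 119 to 923 CPM in tumors. Their part in the fall of Adamts13 was not tested. Vwf, the gene of its substrate, chosen here after its values were seen, was also lower, at 10.6 CPM in livers against 2.42, 3.7 and 1.3 CPM in the 3 tumor groups (adjusted p = 0.00146 and 0.000158).

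The proteoglycanases, which cut aggrecan and versican, changed mainly in Adamts4. It went from 0.6 ± 0.587 CPM in livers to 5.55 ± 4.89, 3.98 ± 1.82 and 4.66 ± 2.4 in Aldafermin + MYC, FGF19 + MYC and sgTrp53 + MYC tumors (8.03-fold, adjusted p = 0.000177, and 7.96-fold, adjusted p = 0.000373), and 13.3-fold and 13.2-fold without the fourth liver, the highest of its group. Adamts1 (chr16:85590579-85600009) held 10.3, 7.74, 12.5, 14.3 and 11.8 CPM in livers and 10.3, 9.25, 23.9, 11.7 and 9.04 in Aldafermin + MYC tumors. With FGF19 + MYC it was 7.7, 13.9, 17.4, 15.3 and 15.9 CPM and in sgTrp53 + MYC tumors 4.55, 5.33, 8.17, 8.54 and 5.89. The first 2 tumor groups overlapped with livers (log2 fold change 0.25, adjusted p = 0.376), and sgTrp53 + MYC tumors were lower, with only the third and the fourth above the lowest liver (log2 fold change -0.80, SE 0.28, adjusted p = 0.0175), a direction that turned to 0.10 (adjusted p = 0.784) when libraries were scaled to total gene reads. Adamts5, Adamts9 and Adamts15 passed in neither comparison with liver (adjusted p from 0.127 to 0.961), Adamts5 at 0.0338 in sgTrp53 + MYC tumors without the fourth of them. Adamts8 and Adamts20 were below the filter, Adamts8 with 34 reads in the second sgTrp53 + MYC tumor and at most 1 in a liver.

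Adamts14 and Adamts2 remove the amino-terminal propeptide of procollagens. Adamts14 (chr10:61032891-61109232) was read at 2.01, 1.65, 1.72, 2.19 and 2.63 CPM in livers and at 1.53, 3.22, 5.52, 2.08 and 2.16 in Aldafermin + MYC tumors. FGF19 + MYC tumors held 4.47, 5.13, 5.34, 5.28 and 7.35 CPM and sgTrp53 + MYC tumors 0.148, 0.336, 1.03, 1.97 and 0.844. The FGF19 + MYC tumors were thus all above the livers and 4 of the 5 sgTrp53 + MYC tumors below them. It was called higher in the pooled tumors (log2 fold change 0.97, adjusted p = 0.0478) and lower in sgTrp53 + MYC tumors (log2 fold change -1.23, adjusted p = 0.0296), but the first call was lost without any 1 of 11 libraries (adjusted p up to 0.104) and the second without the fifth liver (0.0612) or the second (0.0704) or the fifth (0.0504) sgTrp53 + MYC tumor. Adamts2 did not pass (adjusted p = 0.845 and 0.109), and Adamts3 was below the filter. Of the other ADAMTS genes, Adamts7, a relative of Adamts12, was lower in the pooled tumors (log2 fold change -1.59, SE 0.27, adjusted p = 3.03e-05) and in sgTrp53 + MYC tumors (log2 fold change -1.08, SE 0.33, adjusted p = 0.00665). Adamts10, a protease of the fibrillin microfibril, was lower in sgTrp53 + MYC tumors (3.55 against 8.69 CPM in livers, adjusted p = 0.00602) and did not pass in the pooled tumors (adjusted p = 0.845). Adamts6, its nearest relative, passed in neither (adjusted p = 0.893 and 0.0755, the second 0.045 without the second sgTrp53 + MYC tumor). Adamts16, Adamts17, Adamts18 and Adamts19 were below the filter.

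The inhibitors split in the tumors. Timp1, a soluble TIMP that is known to rise in injured liver (chrX:20736316-20740976), was read at 0, 0.257, 0.309, 0.205 and 0.558 CPM in livers. It stood at 3.96, 1.29, 10.1, 2.27 and 10.7 CPM in Aldafermin + MYC tumors, 0.781, 0.874, 1.53, 2.11 and 1.62 in those with FGF19 + MYC and 1.32, 12.6, 0.761, 0.776 and 2.29 in sgTrp53 + MYC tumors. Every tumor lay above every liver, and the third and the fifth Aldafermin + MYC and the second sgTrp53 + MYC tumor stood well above the others. The rise was 9.89-fold in the pooled tumors (log2 fold change 3.31, SE 0.82, adjusted p = 0.00127) and 12.5-fold in sgTrp53 + MYC tumors (log2 fold change 3.64, SE 0.87, adjusted p = 0.00104), or 4.53-fold (adjusted p = 0.00753) without the second of these, the tumor with the bile duct keratins.

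Timp2, which on Mmp14 takes part in the activation of Mmp2 (chr11:118191887-118246566), held 24.5, 23.8, 26.7, 24.2 and 31.2 CPM in livers. Tumors had 17.9, 14.3, 49.1, 25 and 16.7 CPM (Aldafermin + MYC), 9.49, 17.1, 12.1, 12.4 and 21.5 CPM (FGF19 + MYC) and 16, 13.8, 13.3, 9.22 and 9.82 CPM (sgTrp53 + MYC). All sgTrp53 + MYC tumors lay below all livers (log2 fold change -1.07, SE 0.29, adjusted p = 0.00297), while the pooled tumors did not pass (log2 fold change -0.46, adjusted p = 0.0955) unless the third Aldafermin + MYC tumor (-0.67, adjusted p = 0.00363) or the fifth FGF19 + MYC tumor (-0.56, adjusted p = 0.0467) was left out. Timp3, which binds to the matrix and also inhibits ADAMTS proteases (chr10:86136236-86185371), was at 41.7, 38.7, 45.1, 41.6 and 49.2 CPM in livers. It was at 27.9, 23.9, 48.2, 33.3 and 31 CPM in Aldafermin + MYC tumors, 21, 27.3, 28.9, 35.3 and 33.4 in those with FGF19 + MYC and 16, 18.4, 24.4, 24.5 and 20.6 in sgTrp53 + MYC tumors. Apart from the third Aldafermin + MYC tumor, all tumors lay below all livers, by 1.4-fold in the pooled tumors (log2 fold change -0.48, SE 0.15, adjusted p = 0.0077) and 2.08-fold in sgTrp53 + MYC tumors (log2 fold change -1.06, SE 0.18, adjusted p = 3.25e-05). Scaled to total gene reads, the value in the pooled tumors turned to 0.37 (adjusted p = 0.0781). Syn3 on the opposite strand shares 21.3% of the exon bases of Timp3. Timp4, an inhibitor best known from the heart (chr6:115187773-115229336), was below the filter. No liver and no FGF19 + MYC tumor had a read of it (0 CPM in all 10). In Aldafermin + MYC tumors it was at 0, 0.0248, 0, 0 and 0.0561 CPM and in sgTrp53 + MYC tumors at 0.0329, 0.238, 0.0346, 0 and 0.215, and its highest library was the second sgTrp53 + MYC tumor with 17 reads.

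The second question was what set the tumors driven by the hormone or its analog apart from those with the Trp53 guide. Against sgTrp53 + MYC tumors, 5 members were higher in the pooled Aldafermin + MYC and FGF19 + MYC tumors and none was lower, 18.5% and 0% of those tested, while 11.6% of all genes were higher and 12.1% lower. By edgeR's quasi-likelihood test 10 of the 27 members tested had an unadjusted p under 0.05, as did 5194 of all 14333 genes. No member separated all tumors of one side from all of the other, as 3.28% of all genes did upward and 2.42% downward. The members had a median log2 fold change of 0.58 and all genes one of -0.02.

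Adamts14, the procollagen protease, differed most, with means of 2.9 and 5.51 CPM in the hormone-driven tumors and 0.866 in sgTrp53 + MYC tumors (4.6-fold, log2 fold change 2.20, SE 0.45, adjusted p = 0.00192). The difference held without any single library (log2 fold change 1.93 to 2.75). Adamts1, the proteoglycanase, was 2.06-fold higher (log2 fold change 1.04, SE 0.26, adjusted p = 0.00635), and the microfibril protease Adamts10 2.32-fold higher (log2 fold change 1.22, SE 0.35, adjusted p = 0.0166, and 0.0508 without the fifth sgTrp53 + MYC tumor, or 0.069 without both the third Aldafermin + MYC and the second sgTrp53 + MYC tumor). Mmp19 was 1.71-fold higher (log2 fold change 0.77, SE 0.19, adjusted p = 0.00768) and so stood between liver and sgTrp53 + MYC tumors. Timp3 was 1.49-fold higher (log2 fold change 0.58, SE 0.16, adjusted p = 0.0126). Values of both sides overlapped in all 5. Genes on the opposite strand share 30.6% of the exon bases of Mmp19 and 21.3% of those of Timp3. The share of ambiguous reads also differed between the deposited tables, and its part in these 2 differences was not tested. Mmp14 did not pass (log2 fold change 0.64, adjusted p = 0.0609), though it did without the fifth Aldafermin + MYC (adjusted p = 0.0395) or the third (0.0341) or the fourth (0.0459) sgTrp53 + MYC tumor, and under 5 of 12 other alternatives, among them DESeq2 and edgeR's likelihood ratio test. The members with the largest rise against liver in the pooled tumors showed no difference that passed between the kinds of tumor. Log2 fold changes were 0.39 in Mmp12 (95% interval -0.85 to 1.62), -0.37 in Mmp13 (-1.56 to 0.82), 0.20 in Adamts12 (-0.29 to 0.70) and -0.34 in Timp1 (-1.66 to 0.98). In Mmp25 it was 0.94, with an interval above 0 before adjustment (0.06 to 1.82, adjusted p = 0.114). In the same comparison 4 of the 8 macrophage markers, 1 of the 10 stellate cell and fibroblast markers, 1 of the 8 endothelial markers and 3 of the 8 hepatocyte markers were higher in the hormone-driven tumors, and 4 of the 5 cholangiocyte markers tested and 1 hepatocyte marker were lower. The cholangiocyte markers summed to 779 CPM in the second sgTrp53 + MYC tumor and to 3.5 to 41.3 CPM in the others of that group. Hormone-driven tumors held 1.86 to 88.4 CPM of them. The part of all these markers in the 5 differences was not tested, and the deposited tables differ in the same way as the groups.

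The third question was whether the analog Aldafermin differed from FGF19, the only pair of related agents here, given in the same way with the same MYC plasmid. None of the 27 members passed, as none of all 14333 genes did (0%) by edgeR's quasi-likelihood test, which gave 5 members and 1048 genes an unadjusted p under 0.05. DESeq2 called no member and 96 genes, and the likelihood ratio test no member and 59 genes. In 20 of the 27 the log2 fold change was above 0, that is, toward Aldafermin, with a median of 0.41 against 0.02 over all genes. Without the third Aldafermin + MYC tumor it was above 0 in 11 of the 26 members then tested, with a median of -0.04. The lowest adjusted p among members were those of Mmp25 (log2 fold change 1.57, 95% interval 0.56 to 2.58, adjusted p = 0.357) and Mmp2 (log2 fold change 1.42, 95% interval 0.45 to 2.39, adjusted p = 0.399). The intervals of Timp1 (0.41 to 3.64), Timp2 (0.15 to 1.36) and Adamts15 (0.02 to 2.44) also lay above 0 before adjustment. The lowest values were those of Adamts13 (log2 fold change -1.34, 95% interval -2.86 to 0.19) and Adamts14 (-0.92, -1.91 to 0.06). The 95% interval stayed within a log2 change of 1 either way in 6 members and within 2 in 17, so that in the other 10 it reached beyond a log2 change of 2 at this number of tumors.

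**Figure D5:**
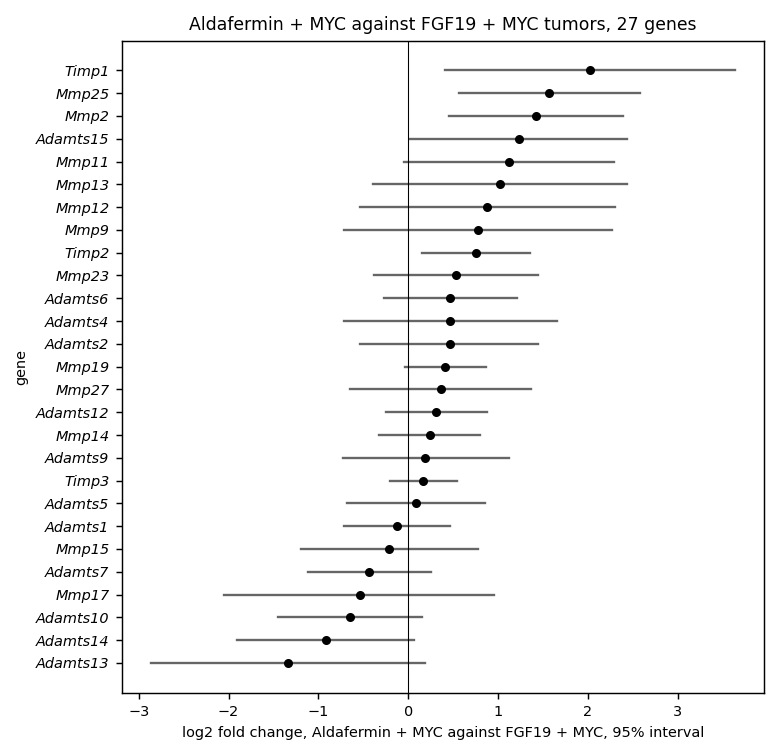
Points are log2 fold changes of Aldafermin + MYC against FGF19 + MYC tumors and bars their 95% intervals, for the 27 genes tested in rising order. Timp1 has the highest value (2.02) and Adamts13 the lowest (-1.34), and the intervals of 5 genes lie above 0 before adjustment.

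The third Aldafermin + MYC tumor stood out in these genes. It was the highest of its group in 19 of the 27 members, 70.4%, whereas it was the highest in 19.9% of all genes tested. The fifth FGF19 + MYC tumor was the highest of its group in 13 members, the most of any library in that group (48.1%, and 21.8% of all genes). The third sgTrp53 + MYC tumor was the highest of its group in 10 members (37%, and 15.7% of all genes). The fifth liver was so in 11 (40.7%, and 20.9% of all genes). In the third Aldafermin + MYC tumor the macrophage markers summed to 351 CPM and the stellate cell and fibroblast markers to 923 CPM, where the medians of its group were 142 and 252 CPM. Without it, Mmp14, Mmp23 and Timp2 passed as lower in the pooled tumors against liver, which makes 8 members lower.

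The proteins that switch MMPs on and the other inhibitors were read as lists of genes. Of 11 activators of metalloproteases, all tested, the pooled tumors had 3 higher and 7 lower than liver, and sgTrp53 + MYC tumors 3 higher and 8 lower. Of all 14333 genes, 39.2% were higher and 34.5% lower than liver in the pooled tumors, and 36.9% and 33% in sgTrp53 + MYC tumors. Against sgTrp53 + MYC tumors, the pooled tumors had 3 activators higher and 1 lower, where 11.6% of all genes were higher and 12.1% lower. The lower one was Plat, the tissue plasminogen activator, named here after its values were seen (log2 fold change -2.04, SE 0.67, adjusted p = 0.0333), a call lost without the second sgTrp53 + MYC tumor or any 1 of 4 hormone-driven tumors (Aldafermin + MYC 1, 2 and 4 and FGF19 + MYC 3), with adjusted p up to 0.288. The higher ones included Hpn (hepsin, a membrane serine protease of hepatocytes), with means of 230, 220, 113 and 755 CPM in Aldafermin + MYC, FGF19 + MYC, sgTrp53 + MYC tumors and livers (log2 fold change 1.00, SE 0.14, adjusted p = 7.92e-05). Pcsk6, a proprotein convertase, was higher as well (log2 fold change 0.57, SE 0.15, adjusted p = 0.0116). Plg, the gene of plasminogen, a plasma protein of hepatocytes whose active form plasmin cuts MMP proenzymes, stood at 702, 768, 249 and 4580 CPM (log2 fold change 1.56, SE 0.43, adjusted p = 0.013). Hpn, Pcsk6 and Plg were all lower in both kinds of tumor than in liver.

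Of 9 other inhibitors and regulators, 2 were higher and 5 lower than in liver in the pooled tumors and likewise in sgTrp53 + MYC tumors. Shares of all genes were 39.2% higher and 34.5% lower in the former and 36.9% and 33% in the latter. None passed between the kinds of tumor by edgeR's quasi-likelihood test. It gave 2 of the 9 and 5194 of all 14333 genes an unadjusted p under 0.05. Pzp, an alpha-2-macroglobulin of mouse plasma, fell from 8190 CPM in livers to 414, 521 and 257 CPM (adjusted p = 1.06e-08 and 8.79e-08). Its relative A2m, named here after its values were seen, was at 0.115 CPM in livers and at 228, 54 and 142 CPM in the tumors. Serpine2, a serpin of the extracellular space, passed in neither comparison with liver (adjusted p = 0.771 and 0.101).

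Among 21 matrix substrates, 18 were tested, and the pooled tumors had 14 higher and 4 lower than liver, against 11 and 4 in sgTrp53 + MYC tumors. The median log2 fold change of this list was 1.90 and 1.08, where that of all genes was 0.10 and 0.07. Of all genes, 39.2% were higher and 34.5% lower than liver in the pooled tumors, and 36.9% and 33% in sgTrp53 + MYC tumors. Fibronectin (Fn1), which hepatocytes also secrete into plasma, was lower than in liver in both (log2 fold change -2.76, SE 0.28, adjusted p = 4.46e-08 in the pooled tumors), and Hspg2 (perlecan of basement membranes) was higher in both (log2 fold change 1.81, SE 0.32, adjusted p = 3.94e-05 in the pooled tumors). Sparc, a collagen-binding protein, rose in the pooled tumors (adjusted p = 0.00161) and did not pass in sgTrp53 + MYC tumors (adjusted p = 0.541). These 3 were also the substrates that were higher in the pooled than in sgTrp53 + MYC tumors (log2 fold changes 1.48, 0.88 and 0.86), with none lower. Between the same tumors 11.6% of all genes were higher and 12.1% lower. The call of Fn1 held without any single library, that of Hspg2 was lost without any 1 of 11 of the 15 libraries (adjusted p up to 0.1, held without Aldafermin + MYC 4 or 5, FGF19 + MYC 1 or sgTrp53 + MYC 4), and that of Sparc without sgTrp53 + MYC tumor 1, 2, 4 or 5 (up to 0.0666). Of 17 ADAM and ADAMTS-like relatives, 12 were tested, and 6 were higher and 5 lower than in liver in the pooled tumors, and 5 and 5 in sgTrp53 + MYC tumors. Bmp1, which removes the carboxy-terminal propeptide of procollagens, fell from 187 CPM in livers to 39.4, 40.9 and 21.4 CPM, and Papln, or papilin, rose from 9.56 to 60.1, 42.6 and 24 CPM. Bmp1 (adjusted p = 0.00884) and Papln (adjusted p = 0.0463) were the 2 relatives that passed as higher in the pooled than in sgTrp53 + MYC tumors, but the call of Papln was lost without any 1 of 12 of the 15 libraries (adjusted p up to 0.108, held without Aldafermin + MYC 4 or 5 or sgTrp53 + MYC 4). No gene of the 4 lists passed between Aldafermin + MYC and FGF19 + MYC tumors by edgeR's quasi-likelihood test. It gave 4 of 9 inhibitors, 2 of 12 relatives and 1048 of all 14333 genes an unadjusted p under 0.05.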

How the data were processed

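RNA was extracted with Qiagen RNeasy, libraries were made with the TruSeq Stranded mRNA kit and, per the labels and the methods of the study, base calls were converted with bcl2fastq 2.20.0.422, reads aligned with HISAT2 to mm39 and counted with htseq-count on RefSeq genes. The authors deposited raw read counts per gene in 2 tables, 1 for the 5 sgTrp53 + MYC tumors and 1 for the other 15 libraries. The 5 summary lines of each were removed. The strand setting is not given in the sources used here.

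The 14333 of 50559 genes that reached 1 CPM in 5 or more libraries were fitted in 1 model of the 4 groups with edgeR 4.0.16 (R 4.3.3, limma 3.58.1), using TMM factors, the quasi-likelihood test and Benjamini-Hochberg adjustment over all genes tested, at a threshold of 0.05. Standard errors are the log2 fold change divided by the root of F. Printed CPM are TMM-normalized, and levels per kb use GENCODE union exon lengths on GRCm39. DESeq2 1.42.0, other scalings and filters, offsets for GC content and exon length (mgcv 1.9.3), the replicate block and leaving out each library were alternatives. Scaling to total gene reads and the pairs of libraries left out together were added after seeing the data. Values without a library that carries a list or a mean were also added then. The scripts were tested on simulated data.

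The members and lists were chosen with earlier results of these data known. Values in all 20 libraries were given for Timp1 to Timp4, Mmp2, Mmp9, Mmp14, Mmp15, Adamts1 and Adamts13, for the 4 members with the smallest adjusted p in each comparison with called members, and for the 2 with the smallest p between Aldafermin and FGF19. Promoter sequences are from RefSeq (GRCm38.p6). The values of 1 listed gene are not reported here.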

Additional observations from a re-analysis of the deposited data

Results flagged for a closer look

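In a group of 5 libraries, 1 library lay far from the others in 10 of 108 groups looked at. A rough figure for chance is 5.4, but genes share libraries, so the 10 are not independent and were not tested against it. The third Aldafermin + MYC tumor accounted for 4 of the 10, with Adamts1 at 23.9 CPM (nearest 11.7), Adamts4 at 14 CPM (nearest 5.08), Adamts7 at 7.02 CPM (nearest 3.35) and Mmp13 at 27.4 CPM (nearest 7.63). Adamts13 stood at 1.23 CPM in the fourth Aldafermin + MYC tumor and at 3.51 CPM in the fifth FGF19 + MYC tumor, the 2 libraries with the most Cyp2e1 among tumors. Adamts4 was at 1.64 CPM in the fourth liver, Mmp15 at 20.2 CPM in the third sgTrp53 + MYC tumor and Mmp27 at 4.97 CPM in the first FGF19 + MYC tumor. Timp1 was at 12.6 CPM in the second sgTrp53 + MYC tumor.

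Adamts14 was called in opposite directions against liver in the 2 kinds of tumor, and the test of the difference itself gave a log2 fold change of 2.20 (edgeR, adjusted p = 0.00192). With 1 library left out, the call against liver held in 4 of 15 fits in the pooled tumors and in 7 of 10 in sgTrp53 + MYC tumors. Aldafermin + MYC tumors (1.53 to 5.52 CPM) overlapped with livers (1.65 to 2.63 CPM).

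Of the 19 genes under the filter, 13 had at most 3 reads in every liver, and 7 of these were flagged for the reads of their highest library. The second sgTrp53 + MYC tumor held 184 reads of Mmp10, 44 of Mmp1a, 12 of Mmp1b, 34 of Adamts8, 27 of Mmp24 and 17 of Timp4, and the third Aldafermin + MYC tumor held 86 reads of Mmp3. Some of these had another tumor near. Timp4 had 14 reads in the fifth sgTrp53 + MYC tumor and Mmp3 had 50 in the second. Adamts8 was at 0.476 CPM in the second sgTrp53 + MYC and at 0.437 CPM in the first Aldafermin + MYC tumor.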

How the results depend on the processing

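No member was called between Aldafermin + MYC and FGF19 + MYC tumors under any alternative run. Without any single library, members higher in the pooled than in sgTrp53 + MYC tumors numbered 4 to 6 and lower ones 0 to 1 (Adamts7 without the third and Adamts6 without the fifth Aldafermin + MYC tumor, adjusted p = 0.0409 and 0.0154), with 1 lower also when no filter was used. Against liver, the pooled tumors gave 7 to 8 higher and 5 to 8 lower, and 8 lower when the third Aldafermin + MYC and second sgTrp53 + MYC tumor were both left out. In sgTrp53 + MYC tumors the counts were 7 to 8 higher and 10 to 12 lower, and 12 higher with no filter. Scaled to total gene reads, 3 members were lower there, Timp3 in the pooled tumors turned to 0.37 and Adamts1 in sgTrp53 + MYC tumors to 0.10. That scaling moves the median log2 fold change of all genes from 0.0956 to 0.939 and from 0.0713 to 0.954. For the members that were called, and for the 4 leading ones between Aldafermin + MYC and FGF19 + MYC tumors, which were not, 461 values under alternatives other than leaving out 1 library stayed on their side of the threshold, 25 lost the call and 2 reversed. Of 71 comparisons of members that were not called, 13 passed under at least 1 such alternative (Mmp14 in 5 against sgTrp53 + MYC tumors and in 4 in the pooled tumors against liver) and 10 without some single library.

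With the replicate number as a block, 6 members were higher and 0 lower in the pooled than in sgTrp53 + MYC tumors, 7 higher and 5 lower in the pooled tumors against liver, and 7 and 12 in sgTrp53 + MYC tumors. Same-numbered libraries correlated between -0.333 and 0.333, and 0 of 20 correlated best with their own number, so they share only a number.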
